A study of Mus musculus with 2 samples.

Results

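The 10 genes described here are *Foxo1* and *Foxo3*, which encode FOXO transcription factors, and 8 genes whose liver expression is tied to FOXO activity or to glucose production: *Irs2*, *8430408G22Rik*, *G6pc*, *Pck1*, *Fbp1*, *Ppargc1a*, *Klf15* and *Tat*. They were chosen by gene symbol, with their values in the same comparison already known, so their fold changes are given as a description with no test. All 10 were found in both libraries, among 53241 distinct symbols. Liver mRNA was sequenced from 1 control library and 1 iFIRKO library, so no value has a replicate error. iFIRKO mice (Adipoq-CreERT2; Insr flox/flox) carry a tamoxifen-inducible Cre that is driven by the adiponectin promoter and removes the insulin receptor gene from adipocytes. The control is labelled WT, while the methods of the study describe IR flox/flox mice as controls. Every mouse was male, was 7 weeks old when tamoxifen began, was given 100 mg/kg on 5 days, and was sampled 3 days after the last dose. Neither source states whether a library came from 1 mouse or from a pool.

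Insulin acts on hepatocytes through its receptor, the IRS adaptor proteins, PI3 kinase and AKT. AKT phosphorylates FOXO factors, which then leave the nucleus, so that FOXO-driven transcription falls when insulin signalling is strong and rises in fasting. In fasted liver FOXO1 works with PGC-1α, the product of *Ppargc1a*, on genes such as *Pck1* and *G6pc*, while glucagon, acting through cAMP, and glucocorticoids induce several of the same genes. Because FOXO phosphorylation and export happen at the protein level, FOXO mRNA does not report FOXO activity.

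The values are normalized read counts per gene, returned from the deposited log2 scale. The libraries held an estimated 42276968 reads (control) and 41305480 reads (iFIRKO) on genes. Fold changes are iFIRKO over control after 4.18 normalized reads were added to each value, and a gene counts as higher or lower past 1.5-fold, the threshold of the study. A gene was tested where either library reached 41.8 normalized reads, which held for 13391 genes, and every member passed this minimum. Intervals are exact Clopper-Pearson intervals at 95% on estimated read pairs. They cover counting error only, compare the libraries rather than the genotypes, and leave out variation between mice. *Insr*, the gene targeted in adipocytes, was at 4246 (control) and 3692 (iFIRKO) normalized reads, and since the deletion is driven in adipocytes its liver level does not check the labels. The 7 hepatocyte markers tested were abundant in both libraries, such as *Apob* with 158321 and 173667 normalized reads. The adipocyte markers *Lep* and *Retn* were listed at 0 in both libraries, and the other adipocyte markers reached at most 8.05 normalized reads.

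Of the 10 members, 2 were more than 1.5-fold lower in iFIRKO, *8430408G22Rik* and *Irs2*, where 7.29% of all genes tested were lower. A single member, *Fbp1*, was more than 1.5-fold higher, where 4.46% of all genes tested were higher. Since the members were chosen from their values in this contrast, nothing is read from these counts. The remaining 7 lay within 1.5-fold in either direction. Counting intervals lay wholly below 0 for 6 members, 2 had intervals wholly above 0, and 2, *Foxo1* and *Klf15*, had intervals that included 0. The median log2 fold change was -0.16 over the members and 0.01 over all genes tested. The gluconeogenic enzymes among the members lay on both sides of no change.

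**Figure D1:**
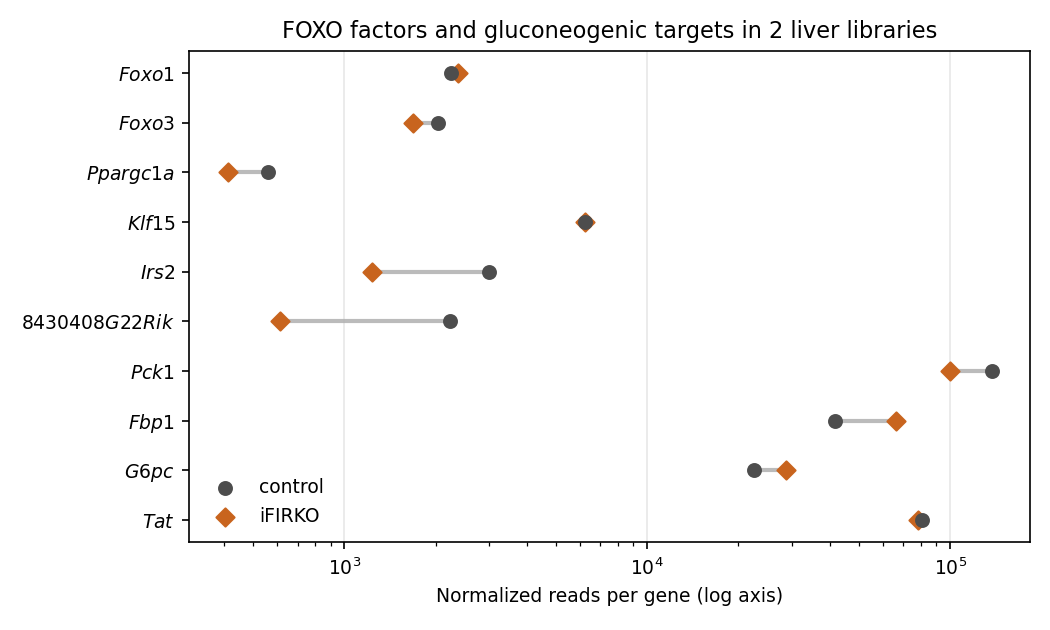
Normalized reads of each member on a log axis, with circles for the control library and diamonds for the iFIRKO library, 1 library each, and a grey line joining the values of a gene. The longest lines belong to *8430408G22Rik* (2237 to 610.5) and *Irs2* (3005 to 1232), while the symbols of *Foxo1*, *Klf15* and *Tat* lie close together.

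**Figure D2:**
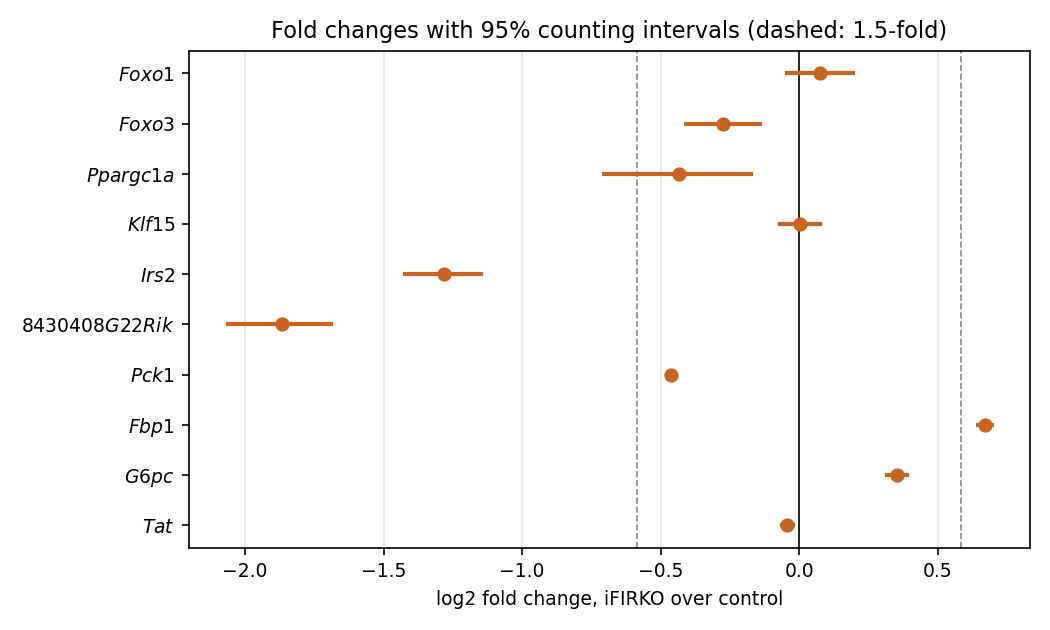
Log2 fold change of each member, iFIRKO over control, with 95% counting intervals as bars and dashed lines at 1.5-fold. *8430408G22Rik* (-1.87) and *Irs2* (-1.28) lie left of the lower line, *Fbp1* (0.67) lies right of the upper line, and the bar of *Ppargc1a* crosses the lower line.

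The FOXO genes themselves showed small differences. *Foxo1* had 2244 (control) and 2363 (iFIRKO) normalized reads, or 0.07 in log2 fold change (interval -0.04 to 0.19), so no difference was detectable at this depth. *Foxo3* had 2036 and 1684 normalized reads, or -0.27 in log2 fold change (interval -0.41 to -0.14). The ratio of *Foxo1* to *Foxo3* reads within a library, which does not depend on scaling between libraries, was 1.10 in control and 1.40 in iFIRKO. Of the other family genes, *Foxo4* had 913.8 and 933.5 normalized reads (log2 fold change 0.03, interval -0.16 to 0.22), and *Foxo6* had 3.97 and 0, below the minimum. None of the 3 family genes tested passed 1.5-fold. *Foxo1* lies on the forward strand of chromosome 3 (52268336 to 52353221, GRCm38, GENCODE M21) and *Foxo3* on the reverse strand of chromosome 10 (42181841 to 42276755).

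*Irs2* encodes an adaptor that couples the insulin receptor to PI3 kinase, and it is a FOXO target that insulin represses. It had 3005 (control) and 1232 (iFIRKO) normalized reads, a 2.43-fold lower value, or -1.28 in log2 (interval -1.42 to -1.15). It stood at place 118 from the lowest of the 13391 fold changes. The related adaptor gene *Irs1* had 987.2 and 887.9 normalized reads, with an interval from -0.34 to 0.03. Within a library, reads of *Irs2* were 3.04 times those of *Irs1* in control and 1.39 times in iFIRKO, and 0.708 and 0.334 times those of *Insr*. *Irs1* and *Insr* both stayed within 1.5-fold. The *Irs2* gene has 2 exons on the reverse strand of chromosome 8 (10984681 to 11008458) and overlaps *9530052E02Rik* on the opposite strand, which had only 5.22 and 7.91 normalized reads.

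*8430408G22Rik*, now named *Depp1*, is a small FOXO-induced gene that has been linked to autophagy. It had 2237 (control) and 610.5 (iFIRKO) normalized reads, a 3.65-fold lower value, or -1.87 in log2 (interval -2.06 to -1.69). It stood at place 24 from the lowest fold change among all genes tested. In the control library its reads were 0.997 times those of *Foxo1*, and in the iFIRKO library 0.258 times. The gene (chromosome 6, 116650609 to 116652794, forward strand) overlaps *Rassf4* on the opposite strand, which had 451.1 and 303.9 normalized reads. The exons of the pair share 0 annotated bases, so reads within exons can be told apart by position, although the use of strand in the authors' counting is not given in the sources used here.

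The stretches of DNA just upstream of these genes were read from the RefSeq promoter table (GRCm38.p6), which holds 250 bases before and 50 bases after each annotated start. All 10 members were in it, 1 of them under its current symbol. The letters searched were CAAAACA, the core of the insulin response element that FOXO factors bind, GTAAACA, the FOXO consensus, and TGACGTCA, the cAMP response element bound by CREB, each on both strands. CAAAACA was found in 2 of the 10 member promoters, *Irs2* and *G6pc*, and in 6.28% of all 32851 promoters. GTAAACA and TGACGTCA were found in none of the member promoters, and in 3.65% and 1.79% of all promoters. In *Irs2* the match lies 37 to 31 bases before the start (chr8:11008960-11008966), and it reads TGTTTTG on the gene's own strand, so CAAAACA itself is on the strand opposite to the gene. The *Irs2* sequence (chr8:11008930-11009179, reverse strand, up to the RefSeq start, which lies upstream of the GENCODE one) and that of *8430408G22Rik* (chr6:116650434-116650608, forward strand, up to the start of the GENCODE gene) are shown because these are the members that were lower, with any CAAAACA match on either strand in capitals.
Irs2: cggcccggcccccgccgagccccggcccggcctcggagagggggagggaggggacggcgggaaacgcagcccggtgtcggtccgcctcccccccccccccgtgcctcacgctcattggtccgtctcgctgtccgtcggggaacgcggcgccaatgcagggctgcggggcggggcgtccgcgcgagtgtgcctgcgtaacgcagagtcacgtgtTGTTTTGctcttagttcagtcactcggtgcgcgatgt
8430408G22Rik: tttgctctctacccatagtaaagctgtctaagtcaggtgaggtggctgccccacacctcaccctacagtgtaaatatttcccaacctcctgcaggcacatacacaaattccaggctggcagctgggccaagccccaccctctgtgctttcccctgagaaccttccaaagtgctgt

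The *8430408G22Rik* stretch holds no match. A match in these windows is a description of the sequence and does not show binding, and elements further from the start lie outside them.

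The gluconeogenic enzymes diverged. *Pck1* encodes cytosolic phosphoenolpyruvate carboxykinase, which turns oxaloacetate into phosphoenolpyruvate. It had 137023 (control) and 99529 (iFIRKO) normalized reads, or -0.46 in log2 fold change (interval -0.48 to -0.44), which stays within 1.5-fold. *Fbp1*, which encodes fructose-1,6-bisphosphatase, was 1.59-fold higher, at 41561 and 66101 normalized reads (log2 0.67, interval 0.64 to 0.69). *G6pc* encodes the catalytic subunit of glucose-6-phosphatase, the enzyme that releases free glucose, and had 22526 and 28779.8 normalized reads, or 0.35 in log2 fold change (interval 0.32 to 0.39). *Pck1* lies on chromosome 2 (173153048 to 173159273) and *G6pc* on chromosome 11 (101367561 to 101377903), both on the forward strand, and *Fbp1* on the reverse strand of chromosome 13 (62864753 to 62888282). The intervals of these 3 genes do not overlap, and they lie below 0 for *Pck1* and above 0 for *Fbp1* and *G6pc*, with only *Fbp1* past 1.5-fold.

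The divergence can be read within each library. For each *Pck1* read there were 0.164 *G6pc* reads in control and 0.289 in iFIRKO, a ratio 1.76 times as high. For *Fbp1* against *Pck1* the ratios were 0.303 and 0.664, which is 2.19 times as high. These ratios do not change with any scaling between the libraries.

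The promoter stretches of *G6pc* (chr11:101367466-101367560, forward strand) and *Pck1* (chr2:173152823-173153047, forward strand) are shown as the pair that diverged, each up to the start of its GENCODE gene. In *G6pc* the CAAAACA match, again on the strand opposite to the gene, lies 174 to 168 bases before the RefSeq start and is in capitals. In *Pck1* the capitals mark CGTCA, the core shared by cAMP response elements, 90 to 86 bases before the RefSeq start. CGTCA was searched after the sequences had been seen, and it occurs in 4 member promoters (*Foxo3*, *Pck1*, *Ppargc1a* and *Klf15*) and in 20.8% of all promoters. It is part of TGACGTCA, so the searches overlap.
G6pc: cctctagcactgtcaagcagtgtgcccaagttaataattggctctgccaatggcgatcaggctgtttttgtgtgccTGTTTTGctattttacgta
Pck1: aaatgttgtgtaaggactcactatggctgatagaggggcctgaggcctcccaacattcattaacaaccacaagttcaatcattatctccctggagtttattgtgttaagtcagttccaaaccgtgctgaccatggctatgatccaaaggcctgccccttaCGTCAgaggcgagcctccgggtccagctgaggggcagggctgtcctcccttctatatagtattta

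Other enzymes from pyruvate to glucose were taken from a list of 26 gluconeogenic and supporting genes, of which 25 were tested. Of these, 4 were higher and 0 lower, with a median log2 fold change of 0.27 against 0.01 over all genes tested. The shares of all genes tested were 4.46% higher and 7.29% lower. Without the members *Pck1*, *Fbp1* and *G6pc*, 3 of 22 genes were higher and the median was 0.24. The list was chosen with earlier results of these data known, so nothing is read from these counts. *Pcx*, pyruvate carboxylase, which feeds oxaloacetate into the pathway, rose from 19252 to 31344 normalized reads (0.70, interval 0.67 to 0.74). *Gpi1*, glucose-6-phosphate isomerase, which also serves glycolysis, rose from 6656 to 12600 (0.92, interval 0.86 to 0.98). *Slc37a4*, the transporter that brings glucose-6-phosphate to G6PC, had 6539 and 8555 normalized reads, a log2 fold change of 0.39. The mitochondrial isoenzyme gene *Pck2* had 242.6 and 278.6 normalized reads, and its interval from -0.17 to 0.56 included 0. *Gapdh* (47669 and 69657) and *Eno1* (24036 and 35360) have near-identical copies in the genome, so their reads are uncertain. Of the 12 enzymes and transporters plotted in pathway order, 11 had values above 0 and *Pck1* was the 1 below.

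**Figure D3:**
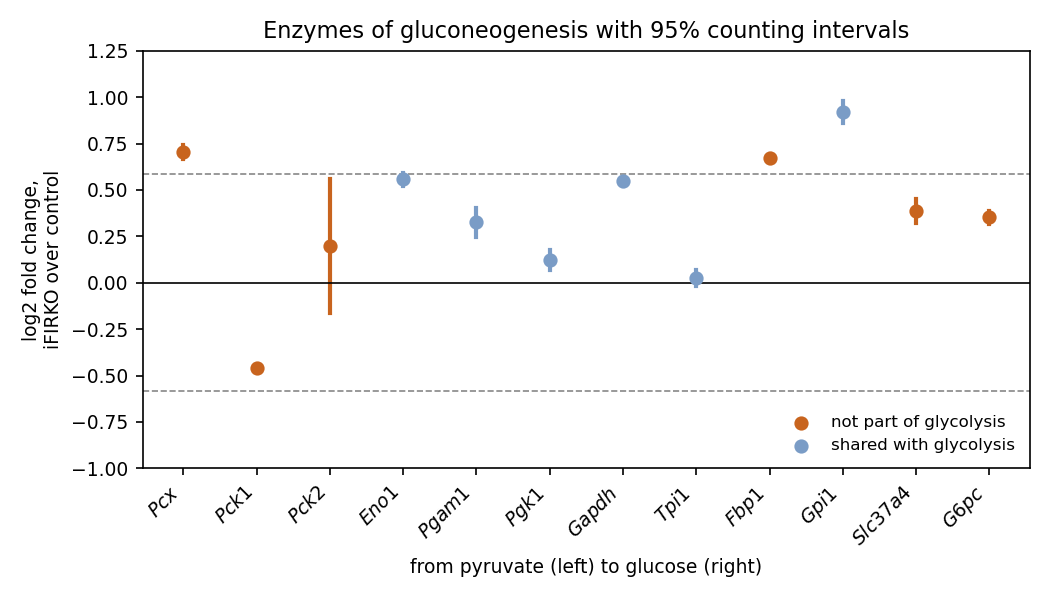
Log2 fold change, iFIRKO over control, of 12 enzymes and transporters in order from pyruvate to glucose, with 95% counting intervals and dashed lines at 1.5-fold. Orange marks the 6 genes that are not part of glycolysis and blue the 6 that are shared with it. *Pck1* is the sole point below 0, and *Pcx*, *Fbp1* and *Gpi1* lie above the upper line.

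The remaining members are *Ppargc1a* (chromosome 5, 51454250 to 51567726, reverse strand), *Klf15* (chromosome 6, 90462576 to 90475238, forward strand) and *Tat* (chromosome 8, 109990437 to 109999803, forward strand), and none of them passed 1.5-fold. *Ppargc1a*, whose product PGC-1α is a fasting-induced coactivator of FOXO1 and HNF4α, had the fewest reads of the members, 557.3 (control) and 411.4 (iFIRKO) normalized reads. Its log2 fold change was -0.43 with an interval from -0.71 to -0.17, based on 280 and 204 read pairs. The interval reaches past 1.5-fold, so a larger difference could not be told apart from this one at this depth. *Klf15*, a Krüppel-like factor of fasting that promotes amino acid breakdown for gluconeogenesis, had 6215 and 6233 normalized reads, a log2 fold change of 0.00 (interval -0.07 to 0.08). *Tat*, tyrosine aminotransferase, is a glucocorticoid- and glucagon-induced enzyme that starts tyrosine breakdown, and it had 80627 and 78238 normalized reads, a log2 fold change of -0.04 (interval -0.06 to -0.02).

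In a list of 34 regulators of gluconeogenesis, members included, 32 were tested, 2 were lower and 0 higher, with a median of -0.13. The lower genes were *Nr0b2* (1480 to 860.9 normalized reads, -0.78, interval -0.96 to -0.61), which encodes the corepressor SHP, and *Trib3* (177.8 to 78.5, -1.14, interval -1.77 to -0.63), a pseudokinase gene whose product binds AKT. The most abundant regulators differed little, with *Hnf4a* at 29516 and 28673 normalized reads, *Cebpa* at 8840 and 8411, and the glucagon receptor gene *Gcgr* at 7985 and 8500.0. Among 19 amino acid catabolism genes, *Tat* included, 1 was lower and 0 higher, and the median was -0.04. The lower gene was *Agxt*, alanine-glyoxylate aminotransferase (9331 to 5479, -0.77). Over all genes tested 7.29% were lower and 4.46% higher, so nothing is read from the counts in either list. *Hpd*, the next enzyme of tyrosine breakdown after *Tat*, had 63965 and 47698 normalized reads, a log2 fold change of -0.42.

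Genes known as FOXO targets in liver or other tissues were taken as a list of 28, all tested and 5 of them members. In it, 7 were lower and 2 higher, with a median log2 fold change of -0.28. Over all genes tested, 7.29% were lower and 4.46% higher. Without the 5 members, 5 of 23 were lower and 2 higher, with a median of -0.22. *Igfbp1*, a secreted IGF-binding protein gene that insulin represses, fell from 19284 to 7234 normalized reads (-1.41, interval -1.47 to -1.36), and *Txnip*, which encodes an arrestin-like inhibitor of thioredoxin and glucose uptake, from 7320 to 4051 (-0.85). The other lower targets were *Fbxo32* (192.7 to 108.7), a ubiquitin ligase gene of muscle atrophy, *Gadd45a* (296.1 to 181.7), a DNA damage response gene, and *Ccng2* (1303 to 849.7), an atypical cyclin gene. Their intervals, in the same order, were -1.33 to -0.33, -1.10 to -0.32 and -0.80 to -0.44, and each reached inside 1.5-fold. The higher targets were *Cdkn1a* (2536 to 4508, 0.83), the gene for the cell-cycle inhibitor p21, and *Apoc3* (31647 to 48182, 0.61), an apolipoprotein gene. The *Apoc3* interval, 0.577 to 0.635, also reached inside 1.5-fold. *Pdk4*, a fasting-induced kinase gene, had 1036 and 889.1 normalized reads, or -0.22 in log2 fold change (interval -0.40 to -0.03). *Cat*, the second most abundant gene of the list, had 94091 and 103399, a log2 fold change of 0.14.

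Upstream of FOXO, 18 genes from the insulin receptor to AKT and FOXO export were tested. *Irs2* and *Trib3* were lower, 0 were higher, and the median was -0.03. Without the member *Irs2*, 1 of 17 was lower and the median was -0.02. Of all genes tested, 7.29% were lower and 4.46% higher, so nothing is read from these counts. *Akt2*, the main AKT gene of liver, had 3506 and 3661 normalized reads, and *Ywhaz*, a 14-3-3 protein that binds phosphorylated FOXO, 4148 and 4093. *Pik3r1*, the regulatory subunit of PI3 kinase, had 3512 and 5177, a log2 fold change of 0.56 (interval 0.47 to 0.65). Its value lay just within 1.5-fold, but its interval reached past 1.5-fold. For comparison with genes that insulin induces, 7 of 13 tested were higher, against 4.46% of all genes tested. In this list, which was also chosen with earlier results known, 0 were lower, and the median was 0.64. The largest were *Pklr*, pyruvate kinase (6984 to 26413, 1.92), *Me1*, malic enzyme (6884 to 17594, 1.35), *Elovl6*, a fatty acid elongase (4969 to 10702, 1.11), and *Scd1*, stearoyl-CoA desaturase (135298 to 223079, 0.72). *Srebf1*, the gene of the lipogenic factor SREBP-1, had 12113 and 10720.5 normalized reads, a log2 fold change of -0.18.

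**Figure D4:**
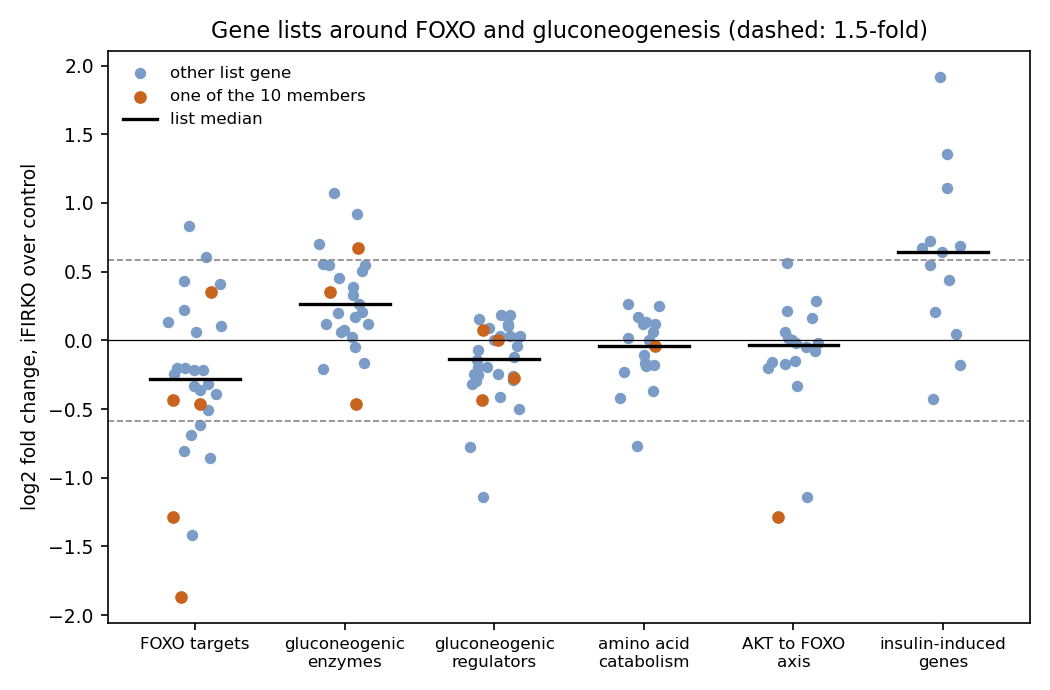
Log2 fold change, iFIRKO over control, of each tested gene in 6 lists, with orange points for the 10 members, blue points for other genes, black bars for list medians and dashed lines at 1.5-fold. The medians run from -0.28 for FOXO targets to 0.64 for insulin-induced genes, and genes of a list spread to both sides of 0.

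Levels were compared between members as normalized reads per kb of annotated exon. In the control library *Pck1* was highest at 39959.9, followed by *Tat* at 33525, *Fbp1* at 24419 and *G6pc* at 9331. *Klf15* followed at 2227, *8430408G22Rik* at 1647 and *Irs2* at 475.2. The FOXO genes were close, *Foxo3* at 269.0 and *Foxo1* at 258.9, and *Ppargc1a* was lowest at 84.5. In the iFIRKO library *Fbp1* was highest at 38837, with *Tat* at 32531 and *Pck1* at 29026, and *G6pc* followed at 11922. *8430408G22Rik* had 449.5 reads per kb, and *Irs2*, at 194.9, had passed from above both FOXO genes to below them (*Foxo1* 272.8, *Foxo3* 222.5). With the length of the longest coding transcript in place of all exons, *Tat* and *Pck1* changed places in the iFIRKO library and no other place changed in either library. With 1 library per group, the order of neighbours with close levels, such as *Foxo1* and *Foxo3*, has no replicate check.

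**Figure D5:**
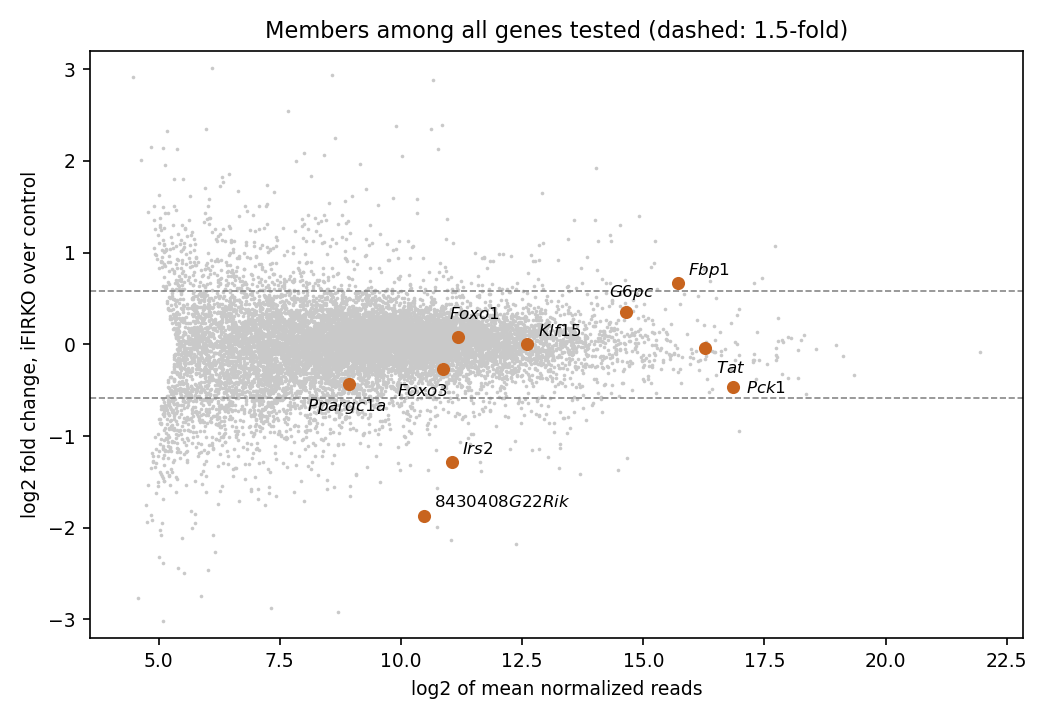
Log2 fold change against the log2 of mean normalized reads for 13391 genes tested (grey, 3 genes lie outside the axis), with the 10 members in orange and dashed lines at 1.5-fold. *Irs2* and *8430408G22Rik* lie below the lower dashed line, *Fbp1* above the upper one, and *Pck1*, *Tat* and *Fbp1* are among the most abundant genes.

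Markers of other liver cell types differed between the libraries. In bulk tissue fewer cells of a type and less RNA per cell cannot be told apart. All 8 endothelial markers were below 0, with log2 fold changes from -0.79 to -0.13 and 2 past 1.5-fold, and their sum was 11937 (control) and 9162 (iFIRKO) normalized reads. All 7 Kupffer cell and macrophage markers were below 0 (-0.99 to -0.29, 4 past 1.5-fold), with sums of 20769 and 14163. The 4 lymphocyte and neutrophil markers tested were lower (-2.46 to -1.30), with sums over the 9 listed genes of 686.5 and 231.5. Stellate markers had sums of 9027 and 9746, the 4 cholangiocyte markers 519.3 and 419.8, and the erythroid markers 8458 and 17198, of which 4 of 4 tested were higher. The 7 hepatocyte markers ran from -0.94 to 0.29, with 1, *Apoa1*, past 1.5-fold. The values of *8430408G22Rik* (-1.87) and *Irs2* (-1.28) were lower than those of every endothelial and Kupffer cell marker, while the lymphocyte and neutrophil markers reached -2.46, and the part of these cell types in the members' values was not tested.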

How the data were processed

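Liver total RNA of 1 control and 1 iFIRKO sample was made into stranded mRNA libraries (TruSeq) and sequenced on an Illumina NovaSeq instrument. The authors deposited normalized read counts by gene symbol on a log2 scale, and a 0 stands for a scaled count of at most 1. The submitters' processing notes name mm10, and the aligner, the counter, the annotation and the treatment of reads with several positions are not given in the sources used here. Positions and exon lengths came from GENCODE M21 (GRCm38) and promoters from RefSeq.

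Values were returned to the linear scale, and of rows that share a symbol the most abundant was used. The commonest low value, 1.99 in control and 2.01 in iFIRKO, was taken as 1 read pair. Of values under 20 pairs, 44.6% and 45.2% were then whole within 0.01 of a pair, so read pairs are estimates. The Clopper-Pearson intervals use these estimates, rounded to whole pairs, and no other count model was used. The pseudocount and minimum stand for a CPM of 0.1 and 1 on the mean library total. With 1 library per group no p-value was computed. Fold and interval code was tested on simulated libraries. Those libraries held whole read pairs with counting error only, so that test does not cover values that were not whole pairs.

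The members and gene lists were chosen with earlier results of these data known. Named are the members, up to 4 genes per direction past 1.5-fold and up to 3 by level from each list, and other names were picked with their values in view. Alternatives covered the pseudocount, the minimum, scaling, the threshold, duplicate symbols, the promoter window and, added after seeing the data, transcript length and the CGTCA core. Results for a few single genes are left out of the text. Scripts ran under Python 3.11.15 with scipy 1.17.1 for intervals, pandas 2.3.3 and numpy 2.4.6 for tables and matplotlib 3.10.9 for plots.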

Additional observations from a re-analysis of the deposited data

How the results depend on the processing

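Each of the 10 members kept its log2 fold change within its counting interval in all 100 recomputed values. The settings for the minimum and for duplicate symbols cannot change a member's value, so that part of the 100 was fixed in advance. The scaling factors were small, from -0.012 to 0.015 in log2. *Irs2* ranged from -1.30 to -1.26, *8430408G22Rik* from -1.88 to -1.80, *Fbp1* from 0.66 to 0.68, *Pck1* from -0.47 to -0.45 and *G6pc* from 0.34 to 0.37, and *Klf15*, at -0.01 to 0.02, lay on both sides of 0. With a fold of 2 the same 2 members were lower and 0 higher, in place of 1.

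The fold of 2 also left 209 higher and 267 lower genes of all tested, 3 lower and 0 higher FOXO targets, 1 higher gluconeogenic enzyme, 1 lower regulator, 0 lower amino acid catabolism genes and 3 higher insulin-induced genes. A pseudocount of a CPM of 1 gave 371 higher and 576 lower genes, no minimum gave 1957 and 2619, and a minimum CPM of 5 gave 288 and 440. That minimum left 1 lower regulator and 1 lower gene from receptor to FOXO, since *Trib3* was no longer tested. None of the 60 recomputed list medians moved by more than 0.1. Under the 4 other scalings the share of higher among all genes past 1.5-fold lay between 36.2% and 40.2%. With the 250 bases upstream alone, CAAAACA was in 5.56% of promoters, those of *Irs2* and *G6pc* included. At this depth counting error was largest for *Ppargc1a*. No paired analysis was possible because the control and iFIRKO groups hold 1 library each.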
